A study of Mus musculus with 18 samples.

Results

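Chimeric reads of miR-181 with their targets were compared between 3 knockout and 3 wild-type libraries of mouse thymocytes that had been enriched for miR-181. These 6 libraries are 6 of the 18 samples of the series, which also holds 6 Ago2 immunoprecipitation (Ago2 IP) libraries without the enrichment and 6 inputs. In this assay, miR-eCLIP, cells are irradiated at 254 nm so that RNA stays bound to Ago2 (Argonaute 2), which holds microRNAs (miRNAs) on their targets, and a miRNA is ligated to the target fragment held beside it, so that 1 sequenced read names both. The wild-type mice were C57BL/6 and the knockout mice were B6.Mirc14tm1.1Ankr, which lack the hairpin genes Mir181a-1 and Mir181b-1, and all were 6 weeks old and kept under SPF conditions. Every group analysed here was made of total thymocytes, crosslinked and then passed through the Ago2 IP, and the enriched groups through a further pull-down of miR-181-5p. The labels do not say whether the samples of a group came from separate mice or pools, so p-values measure only the spread between these libraries. The deletion is in the germ line of the whole animal, and the inputs were not analysed here.

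The reads compared were those that named miR-181a-5p, b-5p, c-5p or d-5p and lay outside the spans of the 6 Mir181 hairpin genes, here called kept reads. They made up 665741 of the 779561 chimeric reads of the 6 libraries. Each kept read that fell into exactly 1 RefSeq gene span was counted for that gene, and a gene's part of the miR-181 contacts is its number of reads per 10000 kept reads of the library. The question was which targets keep or lose their part of the contacts that remain without Mir181a-1 and Mir181b-1. A part is a relative measure: in these data a gene that keeps its part still has far fewer reads in the knockout. In such bulk samples fewer cells of a type and less RNA per cell cannot be told apart.

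miR-181 is an abundant miRNA family of immature thymocytes, known for setting the strength of T cell receptor signalling by restraining phosphatases and other brakes on the pathway. A miRNA guides Ago2 to messenger RNAs mainly through its seed, the bases near its 5′ end that pair with the target. Mature miR-181a-5p and b-5p can each come from a hairpin on chromosome 1, deleted here, or from an intact copy on chromosome 2, while c-5p and d-5p come from a locus on chromosome 8 that is intact as well.

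The mature sequences show what the family members share and where they could differ in pairing. They are given 5′ to 3′ from RefSeq, with the seed (bases 2 to 8) in capitals.
miR-181a-5p: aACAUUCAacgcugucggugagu
miR-181b-5p: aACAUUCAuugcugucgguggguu
miR-181c-5p: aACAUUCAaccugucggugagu
miR-181d-5p: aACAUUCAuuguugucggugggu
All 4 have the seed ACAUUCA, so the loss of a hairpin changes the amount and the makeup of the family but not the seed. Counted from 1 at the 5′ end, b differs from a over their shared length by A9U, C10U and A21G, and d differs from b by C12U. Removal of base 11, a G, from miR-181a-5p gives miR-181c-5p.

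The knockout libraries held far fewer miR-181 reads. Wild-type libraries 1, 2 and 3 had 249540, 220312 and 169216 kept reads, and knockout libraries 1, 2 and 3 had 8363, 13501 and 4809. The means were 213023 ± 40655 and 8891 ± 4370 reads (SD, n = 3 each), 23.96-fold fewer in the knockout, and the groups did not overlap (log2 difference -4.69; exact two-sided permutation p = 0.1, the smallest possible with 3 against 3; adjusted p = 0.16 over 8 tests). These are totals, not scaled for sequencing depth. All chimeric reads numbered 293149, 253502 and 194628 in wild type and 12186, 19264 and 6832 in the knockout. Kept reads made up 85.1%, 86.9% and 86.9% of them against 68.6%, 70.1% and 70.4%. In the Ago2 IP, without the pull-down, these shares were 29.5%, 30.1% and 31.1% against 1.29%, 1.35% and 1.42%. The genotype labels held at the deleted locus, where the Mir181a-1 and Mir181b-1 spans had 0 reads in every knockout library. Between 12.2% and 13.8% of wild-type and between 2.6% and 3.4% of knockout miR-181 reads lay in hairpin spans and were left out. A count of 3 reads, the floor used where none was seen, equals 0.1202, 0.1362 and 0.1773 reads per 10000 in the wild-type libraries and 3.59, 2.22 and 6.24 in the knockout libraries. Thymocyte markers were well covered, with 11808 wild-type and 519 knockout reads over all 12, whereas the marker lists of B cells, macrophages and dendritic cells, thymic epithelium and erythroid cells held 3, 18, 1 and 16 wild-type reads and 0, 1, 0 and 2 knockout reads.

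The loss fell on miR-181a and miR-181b. Reads named miR-181a-5p went from 518427 over the 3 wild-type libraries to 11817 over the 3 knockout libraries, 43.9-fold fewer, and reads named miR-181b-5p from 113263 to 5273, 21.5-fold fewer. Reads named miR-181c-5p numbered 4554 and 6089, and those named miR-181d-5p 2824 and 3494, so that neither was fewer in the knockout. Among kept reads, miR-181a-5p made up 82.5%, 81.3% and 78.8% in wild type and 44.8%, 44.3% and 43.4% in the knockout. miR-181c-5p made up 0.714%, 0.708% and 0.717% against 23.7%, 22.5% and 22.3%, and miR-181d-5p 0.428%, 0.440% and 0.465% against 12.7%, 13.5% and 12.9%. These 3 shares were each without overlap of the groups (exact permutation p = 0.1, adjusted p = 0.16 over 8 tests). The share of miR-181b-5p was 17.97% ± 1.90 and 20.0% ± 1.33 (SD, n = 3; exact permutation p = 0.3, adjusted p = 0.4), with overlapping groups.

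The broad placement of the contacts was compared next. A mean of 92.8% ± 0.128 of wild-type and 92.8% ± 0.381 of knockout kept reads lay in exactly 1 gene span (SD, n = 3; exact permutation p = 0.9). The 100 genes with most wild-type reads took 21.3% ± 0.494 and 21.7% ± 0.526 of kept reads (exact permutation p = 0.4). The latter share was higher in the knockout by 5.65 percentage points with identical reads counted once and by 2.49 with hairpin spans kept (exact permutation p = 0.1 each), and with 3 against 3 libraries these tests do not show that the genotypes are alike. Identical repeats, meaning reads with the same position, strand and miRNA as an earlier read of the library, made up 24.0%, 19.3% and 18.0% of wild-type and 6.05%, 6.07% and 4.26% of knockout kept reads. Repeats thus moved with genotype and with depth, without overlap (exact permutation p = 0.1, adjusted p = 0.16), and counting identical reads once is given beside the results it changed.

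Of 14734 genes with a kept read, 2005 had enough reads to test, and 51 of them (2.54%) had a different part in the knockout (edgeR quasi-likelihood test, Benjamini-Hochberg adjusted p of at most 0.05; 230 at an unadjusted p under 0.05). The part was larger for 32 genes (1.6%), called gained here, and smaller for 19 (0.948%), called lost. Another 158 genes (7.88%) kept their part, meaning that they were not called and that the 95% interval of their log2 fold change lay between -1 and 1. The other 1796 were undecided at this depth. The groups did not overlap in 502 genes (25.0%), and in 47 of the 51 called; the exceptions included Kmt2a, Emsy and Cth.

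Depth set how many genes could be classed. Only 440 of the 2005 genes would have had 10 or more knockout reads at an unchanged part, and all 158 kept genes were among them. Without knockout library 2, the deepest, 26 genes were called and 58 kept; without knockout library 3, 33 were called; and without knockout library 1, 98 kept their part. The split of calls also depended on scaling. It was 62.7% gained with the kept reads as library size, 46.7% with TMM factors (21 gained, 24 lost) and 27.4% with all chimeric reads as library size (20 gained, 53 lost), which shifted the median log2 fold change of all tested genes from -0.04 to -0.21 and -0.35.

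The 3 classes differed in how much of the contacts they held. Gained genes took 3.71%, 3.23% and 3.19% of wild-type and 9.004%, 7.70% and 8.46% of knockout kept reads. Lost genes took 3.14%, 2.74% and 2.47% of wild-type and 0.502%, 0.518% and 0.499% of knockout reads. Kept genes took 19.3%, 19.7% and 19.4% against 20.5%, 20.1% and 20.1%. These shares describe the classes, which were formed on the same reads.

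**Figure D1:**
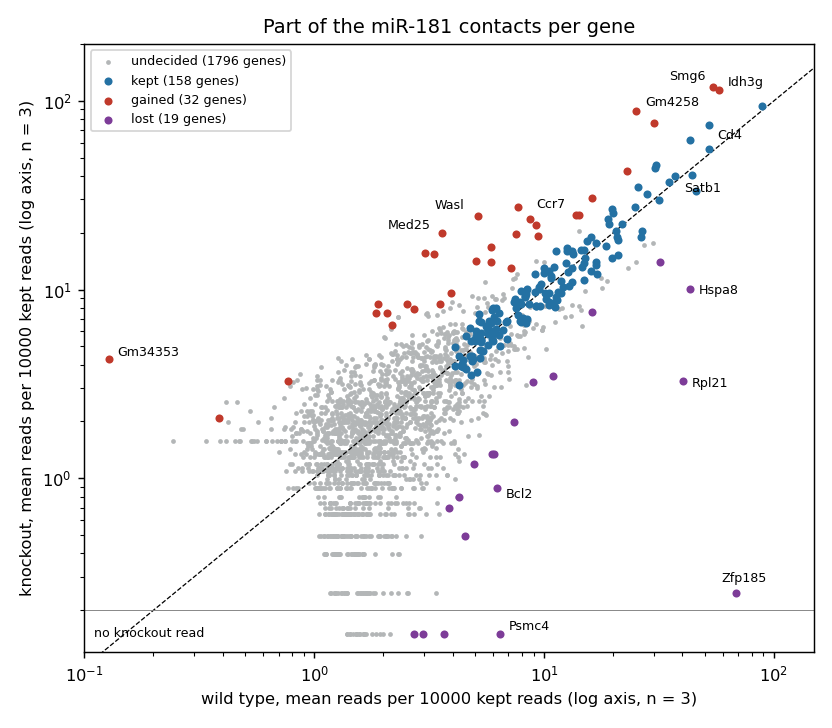
Mean reads per 10000 kept reads in wild type (x) and knockout (y), both on log axes, 1 point per tested gene (n = 3 libraries per axis), coloured by class; the dashed line marks equal parts, and genes with no knockout read sit under the grey line. Kept genes lie along the dashed line above about 4 reads per 10000, gained genes such as Gm4258 and Wasl above it, and lost genes such as Zfp185 and Rpl21 below it.

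The gained gene of smallest p was Gm4258, a long noncoding RNA gene on the plus strand of chromosome 1 (137898464 to 137963020, GRCm38) that ends just upstream of the deleted hairpins (Mir181a-1 at 137966455 to 137966541, Mir181b-1 at 137966639 to 137966718). It had 23.3, 25.3 and 26.7 reads per 10000 in wild type and 83.7, 79.3 and 102 in the knockout. All knockout libraries were thus above all wild-type libraries, a log2 fold change of 1.79 (SE 0.18, edgeR's adjusted p = 7.79e-18). The firmest gain within the gene lay at 1 place: a run of positions at 137959662 to 137959823 held 22.8% of its wild-type and 54.4% of its knockout reads, and on its own changed by 3.04 (SE 0.23, edgeR's adjusted p = 5.57e-12 over 816 such runs). Another run of the same gene, at 137924952 to 137925098, had 225 wild-type and 3 knockout reads and was not called (edgeR's adjusted p = 0.162). Gm4258 neighbours the deleted hairpins, and whether its reads are contacts of a mature miRNA with a target was not tested.

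A second noncoding gene of this region, Gm34353 (chromosome 1, plus strand, 137993835 to 138009778), lies on the other side of the deleted hairpins. It had 4, 1 and 3 reads in the large wild-type libraries and 4, 8 and 1 in the small knockout libraries, or 0.160, 0.0454 and 0.177 against 4.78, 5.93 and 2.08 reads per 10000. The log2 fold change of 5.15 (SE 0.49, edgeR's adjusted p = 1.49e-11) rests on 21 reads in all, and DESeq2 did not call it. Gm34353 had enough reads per 10000 for the test only in the knockout libraries. Its p-value is thus that of a gene selected for a high knockout part, although without a filter on low counts it was still called. Another gained place near a miRNA locus lay outside gene spans on chromosome 8 (84178789 to 84178834, minus strand), between the hairpin spans of Mir181d (84178716 to 84178787) and Mir181c (84178873 to 84178961). Its 11 wild-type and 13 knockout reads gave a log2 fold change of 4.82 (SE 0.55, edgeR's adjusted p = 2.29e-07). This place, too, had enough reads per 10000 for the test only in the knockout libraries. These reads border hairpin spans that were left out, and whether they are contacts of a mature miRNA with a target was not tested.

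Among protein-coding genes, Wasl, Med25 and Mcph1 had the gains of smallest p. The gained genes below are ordered by what they are known to do, and whether such functions are more frequent among them was not tested. Wasl encodes N-WASP, which starts branched actin filaments, and had 4.93, 5.22 and 5.32 reads per 10000 in wild type and 27.5, 25.2 and 20.8 in the knockout. Its log2 fold change was 2.28 (SE 0.23, edgeR's adjusted p = 5.51e-16), with all knockout libraries above all wild-type ones. Med25, a subunit of the Mediator complex that links activators to RNA polymerase II, went from 3.49, 3.40 and 3.90 to 33.5, 9.63 and 16.6 (log2 fold change 2.39, SE 0.26). Here the knockout libraries spread widely, yet the lowest was above the highest wild-type value. Mcph1, microcephalin, which acts in chromosome condensation and the DNA damage response, had 8.66, 7.40 and 7.09 against 23.9, 28.9 and 29.1 (log2 fold change 1.82, SE 0.22). Sypl, a membrane protein related to synaptophysin, went from 2.89, 3.40 and 2.78 to 9.57, 12.6 and 24.95 (log2 fold change 2.21, SE 0.29).

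Smg6, Pnrc2 and Gigyf1 gained as well. Smg6, the endonuclease of nonsense-mediated decay, was among the genes with most knockout reads: it had 61.0, 51.6 and 50.1 reads per 10000 in wild type and 123, 93.3 and 137 in the knockout (log2 fold change 1.09, SE 0.18, edgeR's adjusted p = 6.11e-07). Pnrc2, an adaptor between decay factors and the decapping enzyme, went from 2.85, 2.81 and 4.25 to 13.2, 12.6 and 20.8 (log2 fold change 2.14, SE 0.29). Gigyf1, which takes part in repression of translation through a cap-binding protein, went from 7.29, 8.26 and 7.03 to 20.3, 22.2 and 16.6 (log2 fold change 1.44, SE 0.24). In none of the 3 did the groups overlap. All 3 calls held in every alternative that tested the gene.

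Atrx, Kmt2c, Kmt2a and Nsd1 were also among the 32 gained genes. Atrx, a chromatin remodeller on the X chromosome, had 29.7, 27.7 and 33.0 reads per 10000 in wild type and 108, 66.7 and 54.1 in the knockout (log2 fold change 1.36, SE 0.18, edgeR's adjusted p = 2.04e-10). Kmt2c, a histone H3 lysine methyltransferase, went from 16.2, 15.5 and 16.7 to 35.9, 28.9 and 27.0 (log2 fold change 0.93, SE 0.21). That call was lost with TMM factors and without knockout library 1 (0.81, adjusted p = 0.0549). Its relative Kmt2a had 7.45, 11.3 and 9.40 against 25.1, 22.2 and 10.4, so that the groups overlapped (log2 fold change 1.15, SE 0.23, edgeR's adjusted p = 0.000375), and the call was lost without knockout library 2 (1.06, adjusted p = 0.0802). Nsd1, another histone methyltransferase, had 3.81, 3.72 and 4.31 against 9.57, 8.89 and 10.4 (log2 fold change 1.26, SE 0.33, edgeR's adjusted p = 0.0223) and lost its call without any 1 of the knockout libraries or wild-type library 2 (adjusted p between 0.0626 and 0.238).

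Idh3g and Man2a1 encode enzymes. Idh3g, a subunit of the mitochondrial isocitrate dehydrogenase, had 78.1, 49.9 and 45.0 reads per 10000 in wild type and 124, 115 and 104 in the knockout. Its log2 fold change was 0.99 (SE 0.18, edgeR's adjusted p = 8.15e-06), and DESeq2 did not call it. Man2a1, a mannosidase of the Golgi that trims N-glycans, went from 5.69, 5.67 and 6.32 to 17.9, 15.6 and 16.6 (log2 fold change 1.49, SE 0.26). In both the lowest knockout library was above the highest wild-type library.

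Ccr7, Prkch and Hivep1 gained with calls that were each lost without 1 library. Ccr7, the chemokine receptor that draws maturing thymocytes into the medulla, had 16.03, 14.1 and 11.1 reads per 10000 in wild type and 26.3, 29.6 and 18.7 in the knockout (log2 fold change 0.93, SE 0.22, edgeR's adjusted p = 0.00299). Prkch, a protein kinase C of T cells, went from 26.6, 22.01 and 20.2 to 43.0, 34.1 and 49.9 (log2 fold change 0.82, SE 0.20, edgeR's adjusted p = 0.00441). Hivep1, a zinc finger transcription factor, went from 9.86, 9.08 and 8.69 to 15.5, 25.2 and 24.95 (log2 fold change 1.25, SE 0.23, edgeR's adjusted p = 3.14e-05). No groups overlapped. The calls of Ccr7 (0.76, adjusted p = 0.302) and Hivep1 (1.05, 0.099) were lost without knockout library 2 and that of Prkch (0.72, 0.105) without knockout library 3, and those of Ccr7 and Prkch also with TMM factors and with DESeq2.

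The other gained genes described here were Fam78a, Heca, Entpd6, Ap4e1, Nusap1, Mcmbp, Slc25a36, Emsy, Kif15, Fam222b, Ube2f, Arl15 and Kcnq5. Their log2 fold changes lay between 0.86 (Nusap1, a spindle protein) and 2.59 (Ube2f, a conjugating enzyme for the ubiquitin-like NEDD8, on 23 wild-type and 6 knockout reads). Of these 13 only Fam78a (1.34, SE 0.23) kept its call without each library in turn; the adjusted p of the other 12 reached between 0.179 and 0.75 without some library. Of all 51 calls, 18 held without each library in turn, and 11, of which 10 were gained, held in every alternative that tested the gene. The 1 lost call among these 11 was Zfp185. It was not tested with identical reads counted once or with genes on few positions left out, so its repeats and its few positions were not examined that way. With identical reads counted once, Kif15 (adjusted p = 0.0648), Fam222b (0.178), Arl15 (0.231) and Kcnq5 (0.0705) were no longer called. Ube2f and Kif15 had enough reads per 10000 for the test only in the knockout libraries, so they were selected for a high knockout part. Both lost their calls without a filter on low counts.

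**Figure D2:**
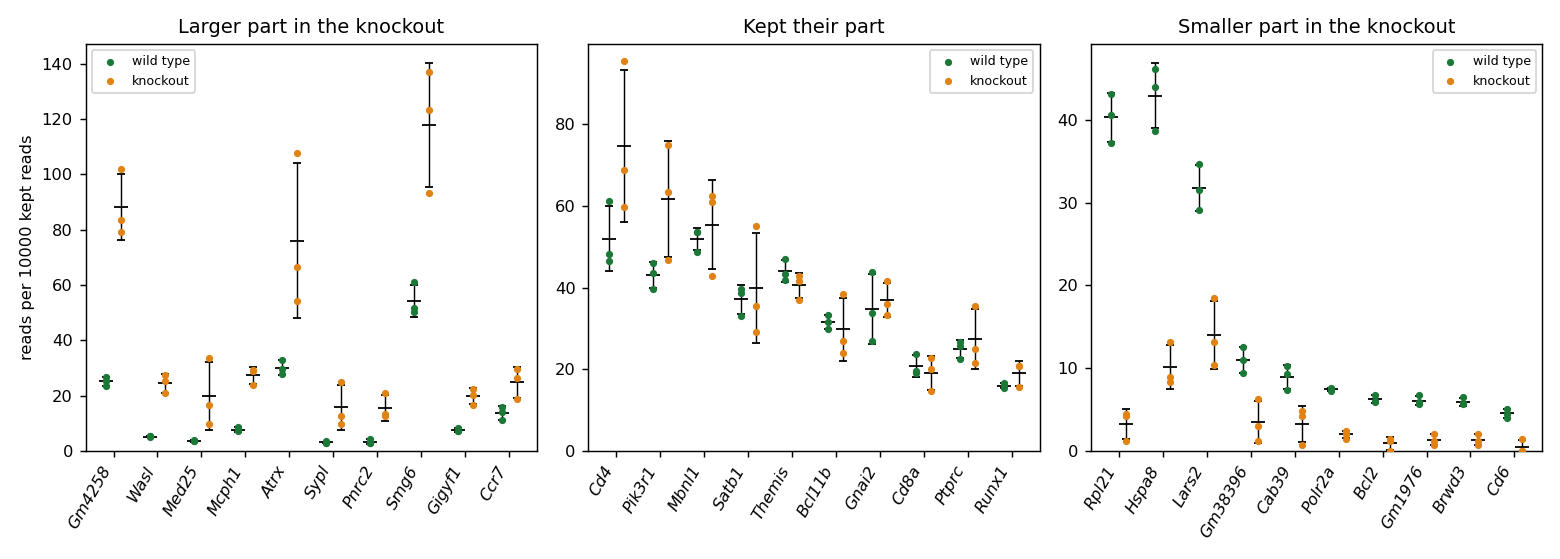
Reads per 10000 kept reads in each library for 10 genes with a larger part in the knockout, 10 that kept their part and 10 with a smaller part; dots are libraries, the black mark is the mean and the bar the SD (n = 3). Knockout dots lie above wild-type dots in the left panel and below them in the right panel, while they mix for most genes of the middle panel.

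The lost genes fell into kinds that differed in how their reads were spread. The first kind were piles of identical reads at a few positions. Zfp185, a LIM domain protein that binds actin, had 2797, 1269 and 599 wild-type reads and 0, 1 and 0 knockout reads, a pooled ratio of 195 per kept read (exact 95% counting interval 34.9 to 7692; edgeR's adjusted p = 2.57e-35). All its reads lay on 4 positions (X, 72994362 to 72994365, plus strand). Psmc4, an ATPase of the proteasome, had 263, 117 and 59 wild-type reads and none in the knockout, at least 6.11-fold lower against a floor of 3 reads over the group (edgeR's adjusted p = 2.73e-06), on 12 positions. Prr16 had 241 wild-type reads on 3 positions and none in the knockout, at least 3.35-fold lower. Cth, an enzyme of cysteine synthesis, had 332 wild-type reads on 2 positions and 3 knockout reads, a pooled ratio of 4.62 (1.57 to 22.5), and lost its call without wild-type library 1, knockout library 2 or knockout library 3 (adjusted p = 0.266, 0.548 and 0.371). Prr16 lost its call without knockout library 2 (0.122). Repeats made up 99.8%, 95.9%, 97.9% and 98.5% of the wild-type reads of Zfp185, Psmc4, Prr16 and Cth. With identical reads counted once, none of these genes had enough reads to be tested.

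The second kind had many wild-type reads, most of them repeats. Rpl21, a protein of the large ribosomal subunit, had 37.2, 40.5 and 43.1 reads per 10000 in wild type and 1.20, 4.44 and 4.16 in the knockout (log2 fold change -3.58, SE 0.47, edgeR's adjusted p = 7.22e-20). Hspa8, the constitutive HSC70 chaperone, went from 38.6, 46.2 and 44.0 to 13.2, 8.89 and 8.32 (-2.08, SE 0.30), and Lars2, the mitochondrial leucyl-tRNA synthetase, from 29.1, 31.5 and 34.7 to 13.2, 18.5 and 10.4 (-1.07, SE 0.26). The groups were well apart, but repeats made up 97.1%, 90.7% and 75.7% of their wild-type reads. With identical reads counted once the log2 fold changes turned to 1.114, 0.51 and 0.55, none of them called. Ribosomal proteins and Hspa8 have near-identical copies in the genome, among which the submitters' placement of reads is uncertain.

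Another kind had nearly all reads in the span of a small RNA gene. Mcmdc2 had 187 wild-type reads and none in the knockout, at least 2.60-fold lower, but 98.4% of its reads lay in the span of the small nucleolar RNA gene Snord87. With identical reads counted once, Mcmdc2 did not have enough reads to be tested. Rbmx, an RNA-binding protein, went from 15.03, 18.5 and 14.9 to 4.78, 9.63 and 8.32 reads per 10000 (log2 fold change -1.04, SE 0.33, edgeR's adjusted p = 0.0273), with 96.8% of reads in the span of Snord61. It turned to 1.18, not called, with identical reads counted once. Both lost their calls without any 1 of the knockout libraries (adjusted p between 0.0637 and 0.295), and Rbmx also without wild-type library 2 (0.131).

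The last kind had wild-type reads over many positions. Bcl2, the inhibitor of apoptosis and a published miR-181 target, had 147, 132 and 115 reads on 351 positions in wild type and 1, 2 and 0 reads in the knockout. Its pooled ratio was 5.48 (exact 95% counting interval 1.86 to 26.7; edgeR's adjusted p = 0.00452), with repeats at 5.08% of wild-type reads. Polr2a, the largest subunit of RNA polymerase II, went from 7.21, 7.63 and 7.45 to 2.39, 1.48 and 2.08 reads per 10000 (log2 fold change -1.98, SE 0.63, edgeR's adjusted p = 0.00686). Cab39, a scaffold of the kinase LKB1, went from 7.37, 9.26 and 10.2 to 4.78, 0.741 and 4.16 (-1.75, SE 0.53, edgeR's adjusted p = 0.00686). Bcl2, Polr2a and Cab39 all lost their calls without knockout library 2 (adjusted p = 0.099, 0.307 and 0.548), without a filter on low counts, and with miR-181a and b names only. Repeats made up 47.8% of wild-type reads at Cab39, which with identical reads counted once was at -1.06 and not called (adjusted p = 0.304).

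Most others of this kind had at most 3 knockout reads. Brwd3 had 381 wild-type and 3 knockout reads (pooled ratio 5.30, interval 1.80 to 25.8), Gm1976 391 and 3 (5.44, 1.85 to 26.5) and Zfp944 246 and 1 (10.3, 1.83 to 407). Cd6, a receptor of T cells that dampens T cell receptor signalling, had 99, 112 and 76 wild-type and 0, 2 and 0 knockout reads (5.99, 1.64 to 49.7; edgeR's adjusted p = 0.0273). Cacna1e, a calcium channel subunit, had 274 and 2 (5.72, 1.57 to 47.5). Rps15a, of the small ribosomal subunit, had 174 wild-type reads and none in the knockout, at least 2.42-fold lower. Gm38396 fell by 1.86 on the log2 scale (SE 0.50, edgeR's adjusted p = 0.000866), resting on 8 knockout against 696 wild-type reads. Each of these 7 calls was lost when some 1 library was left out. Without knockout library 2 the adjusted p was 0.317 at Brwd3, 0.302 at Gm1976, 0.085 at Gm38396, 0.466 at Zfp944, 0.548 at Cacna1e and 0.302 at Rps15a. Calls were also lost without knockout library 1 at Zfp944 (0.172), Rps15a (0.111) and Cd6 (0.233), without knockout library 3 at Rps15a (0.0739), Cacna1e (0.211) and Cd6 (0.143), and without wild-type library 2 at Cacna1e (0.104) and Cd6 (0.0803). With identical reads counted once, Gm1976 (adjusted p = 0.122) and Rps15a (0.0846) were not called.

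Over the 19 lost genes, repeats made up a median of 47.8% of wild-type reads, against 24.1% in gained, 16.1% in kept and 7.96% in all tested genes. In 9 of the 19, repeats exceeded 75% of wild-type reads, against 2 of 32 gained and 30 of all 2005 genes. In 5 of the 19, the wild-type reads lay on fewer than 20 positions, against 1 of 32 gained, 0 of 158 kept and 22 of all 2005 genes. A lost call needed many wild-type reads, since the lowest total among these genes was 174. Reads of the wild-type libraries are more repeated and deeper than those of the knockout libraries, and 3 alternatives bear on this. Counting repeats once gave 58 gained and 13 lost calls, 34 of them among the 51. Leaving out genes on few positions gave 30 gained and 14 lost calls, and thinning wild type to the knockout depth gave 17 gained and 5 lost calls among 97 genes tested.

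Several well covered thymocyte genes kept their part. Cd4, the coreceptor of helper T cells, had 61.3, 48.3 and 46.5 reads per 10000 in wild type and 59.8, 68.9 and 95.7 in the knockout. Its log2 fold change was 0.48, with a 95% interval of 0.11 to 0.84, within the band but wholly above 0. Satb1, a chromatin organiser of thymocytes, had 33.1, 39.6 and 38.7 against 55.0, 35.6 and 29.1 (0.13, up to 0.52). Themis, a signalling protein needed for positive selection, had 41.8, 43.4 and 46.9 against 37.1, 43.0 and 41.6 (-0.11, up to 0.28). Bcl11b, the transcription factor that commits cells to the T lineage, had 33.2, 29.9 and 31.7 against 23.9, 38.5 and 27.0 (-0.02, up to 0.40). In these 4 genes the groups overlapped. Their read numbers were still lower in the knockout, with 2794 and 109 at Themis and 3380 and 189 at Cd4.

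The 10 kept genes with the narrowest intervals were Rn18s-rs5, Cd4, Pik3r1, Mbnl1, Zfand3, Ptbp3, Satb1, Themis, Prps2 and Gnai2. The intervals of Cd4, Pik3r1 (0.083 to 0.83) and Zfand3 (0.13 to 0.90) lay wholly above 0. Those of Ptbp3 (0.16 to 0.94) and Prps2 (0.062 to 0.87) did so as well. Keeping a part thus means a change within the band, not the absence of a change. Rn18s-rs5, a copy of the 18S ribosomal RNA whose reads cannot be told from those of other copies, had 77.8, 105 and 83.4 reads per 10000 against 89.7, 94.1 and 97.7 (log2 fold change 0.07). Mbnl1, a splicing regulator, had 48.8, 53.6 and 53.5 against 61.0, 43.0 and 62.4 (0.05), and Gnai2, an inhibitory G protein subunit, 43.7, 33.8 and 26.8 against 35.9, 33.3 and 41.6 (0.05). Pik3r1, the regulatory subunit of phosphoinositide 3-kinase, had 46.0, 43.5 and 39.8 against 63.4, 46.7 and 74.9 (0.46), so that every knockout library was above every wild-type library although the gene was not called (edgeR's adjusted p = 0.254).

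Gene lists were described by how many members were called, beside 1.6% gained, 0.948% lost and 7.88% kept, and a median log2 fold change of -0.04, over all 2005 tested genes. The kept share depends on depth. All 158 kept genes were among the 440 with 10 or more knockout reads expected at an unchanged part. Of 14 published miR-181 targets, 9 were tested: none gained, Bcl2 was lost, Dusp5 kept its part, and 7 were undecided, with a median log2 fold change of -0.63. Dusp5, a phosphatase of MAP kinases, had 6.89, 6.63 and 7.03 reads per 10000 in wild type and 7.17, 8.89 and 4.16 in the knockout (log2 fold change 0.12, SE 0.34). The undecided targets had too few knockout reads: Ptpn22, a phosphatase of T cell receptor signalling, had 30, 33 and 19 wild-type reads against 1, 2 and 1 knockout reads, Cd69 36, 43 and 39 against 1, 0 and 1, and S1pr1, the receptor for exit from the thymus, 37, 47 and 36 against 0, 2 and 0.

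Of 22 genes of T cell receptor signalling, 17 were tested; none gained, Cd6 was lost, 6 kept their part (Cd4, Cd8a, Cd8b1, Cd247, Ptprc and Themis) and 10 were undecided, with a median of -0.07. Cd8a, a chain of the coreceptor of cytotoxic T cells, had 23.8, 19.5 and 19.0 reads per 10000 against 22.7, 20.0 and 14.6 (log2 fold change -0.07, SE 0.24). Ptprc, the phosphatase CD45, had 25.8, 22.4 and 26.8 against 21.5, 35.6 and 24.95 (0.20, SE 0.22). Lck and Fyn, the kinases that start the signal, were undecided with 140 and 281 wild-type and 6 and 16 knockout reads.

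Of 18 T cell transcription factors, 14 were tested, and none gained or lost. Of the 14, 10 kept their part (Tcf7, Lef1, Bcl11b, Runx1, Satb1, Tox, Ets1, Ikzf1, Tcf12 and Foxp1), with a median of -0.06 over the 14. These 10 were among the 440 better covered genes, of which 158 kept their part. Tox, a regulator of CD4 lineage development, had 18.9, 19.3 and 18.4 reads per 10000 against 23.9, 28.1 and 18.7 (log2 fold change 0.39), and Foxp1, which keeps T cells quiescent, 20.0, 18.4 and 21.0 against 15.5, 14.1 and 14.6 (-0.43). Of the recombination genes, Rag1 had 14.4, 14.6 and 14.2 against 9.57, 9.63 and 4.16, all knockout libraries below all wild-type ones, yet it was not called (log2 fold change -0.75, SE 0.31, edgeR's adjusted p = 0.204).

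Among 9 Tle, Btg and Tob genes, which repress transcription or proliferation, 4 were tested with no call and a median of -0.36. Btg2, with 48.4, 42.3 and 47.2 reads per 10000 against 31.1, 35.6 and 33.3, kept its part by the rule (log2 fold change -0.45, SE 0.21) although no knockout library reached the wild-type values. Tle5 had 16.8, 15.4 and 21.3 against 8.37, 11.9 and 10.4 (-0.77, SE 0.29, edgeR's adjusted p = 0.148). Of 11 genes of the miRNA machinery, 7 were tested with no call; Tnrc6a, Tnrc6c and Dicer1 kept their part, and the median was 0.56. Ago2 itself, the slicer that was immunoprecipitated, had 6.73, 7.81 and 8.39 against 9.57, 14.1 and 12.5 (0.69, SE 0.28, edgeR's adjusted p = 0.251), without overlap but not called. Of 9 genes of thymocyte migration, 6 were tested, Ccr7 gained, the other 5 were undecided and the median was 0.45.

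Contacts were also compared by place within genes. Reads at most 20 nt apart on 1 strand were joined into runs, of which 816 were tested and 56 (6.86%) called, 40 higher and 16 lower in the knockout (edgeR's adjusted p of at most 0.05). In 118 genes with at least 2 tested runs, 12 had 1 run called and another not called, and 0 had runs called in opposite directions. Smg6 had both its tested runs called: 1 at chromosome 11, 74930384 to 74930745, with 765 wild-type and 95 knockout reads (log2 fold change 1.69, SE 0.25), and 1 at 74931458 to 74931642 with 2506 and 195 (0.96, SE 0.20). In Kmt2c the run at chromosome 5, 25273066 to 25273304, gained (1.52, SE 0.26; 505 and 60 reads), while a run at 25271992 to 25272124 had 92 and 2 reads and was not called. In Wasl the gain lay at chromosome 6, 24615699 to 24615808 (2.77, SE 0.30; 182 and 52 reads). A call of 1 run and none of the other does not show that they differ, which was not tested. Exon, intron and UTR classes of these places were not analysed here.

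The family member behind the remaining contacts varied between genes. Over all knockout kept reads, 35.9% named miR-181c or d. In 42 genes with at least 50 knockout reads this share ranged from 2.82% to 51.7% with a median of 36.3%, and its 95% Wilson interval, which covers counting error only, lay wholly below 35.9% in 9 genes and wholly above it in 5. It was lowest at Ccr7, with 2 of 71 reads (2.82%, interval 0.776% to 9.70%), and at Pik3r1, with 7 of 152 (4.61%, 2.25% to 9.20%). Low shares were also seen at Tpr (6.85%), Btg2 (9 of 90 reads), Smg6 (13.6%, 10.1% to 17.9%), Mcph1 (13.7%), Prrc2b (16.1%), Gnai2 (25.3%) and Cd4 (28.0%). The low share held in each knockout library at Pik3r1 (7.55%, 3.17% and 2.78%) and at Smg6 (11.7%, 12.7% and 18.2%).

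The highest shares of c and d were at Fam78a (51.7%, interval 39.2% to 64.1%), Kmt2a (50%, 37.3% to 62.7%), Wasl (47.8%, 36.3% to 59.5%), Satb1 (47.2%, 38.1% to 56.6%) and Prkch (47.2%, 37.9% to 56.6%). At Wasl 44.8% of knockout reads named c and 2.99% named d, whereas at Cd8a 9.43% named c and 37.7% named d. In wild type, where a and b dominate, c and d together were 0.144% of reads at Pik3r1, 0.334% at Ccr7, 1.83% at Wasl and 2.19% at Kmt2a. Cd4 stood out for miR-181b, with 54.4% of wild-type and 64.0% of knockout reads against 17.97% and 20.0% as the mean over libraries of all kept reads. These shares were not tested, since reads of a library are not replicates.

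**Figure D3:**
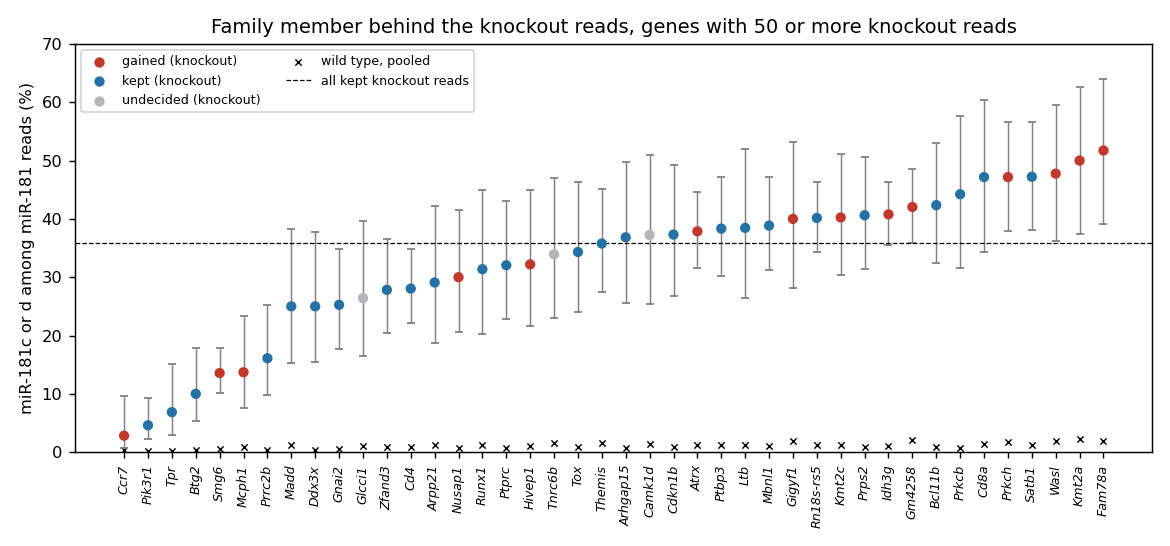
Share of knockout miR-181 reads (%) that named miR-181c or d, for each of 42 genes with at least 50 knockout reads, with 95% Wilson intervals; colours give the class, crosses the pooled wild-type share, and the dashed line the share over all kept knockout reads. Shares run from 2.82% at Ccr7 to 51.7% at Fam78a, around a pooled 35.9%.

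Leaving out the names c and d changed which genes were called. With miR-181a and b names only, 29 genes were called, 24 of them shared with the 51. Smg6 (log2 fold change 1.497), Ccr7 (1.52) and Med25 (2.78) stayed gained and had larger changes, and Wasl (1.99) and Gm4258 (1.63) stayed gained with smaller ones. Fam78a (0.93, edgeR's adjusted p = 0.157), Kmt2a (0.82, 0.266), Kmt2c (0.84, 0.0651) and Prkch (0.53, 0.435) were no longer called, and Arl15 turned to -0.30 (0.926). With c and d names only, whose 7378 wild-type and 9583 knockout reads are close in number, 12 genes could be tested and 5 were called: Gm4258 (1.15), beside the deleted hairpins, Atrx (1.44) and Idh3g (1.29) were higher, and Rpl21 (-3.91) and Hspa8 (-2.58) lower, each in the direction of the whole family.

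The Ago2 IP libraries, made without the enrichment, gave a separate view of the same question at much lower depth. Their miR-181 reads outside hairpin spans numbered 69189 in wild type and 2435 in the knockout over 3 libraries each, and 67 genes could be tested. Whether the same mice gave both kinds of library is not stated in the sources used here. The 32 gained genes took 2.24%, 2.34% and 2.17% of these reads in wild type and 4.46%, 4.49% and 5.01% in the knockout, without overlap. The 19 lost genes took 0.974%, 0.962% and 1.001% against 0.383%, 0.657% and 0.678%, again without overlap. These knockout shares rest on few reads, with no lost gene above 3 knockout reads there. Pooled reads per 10000 were higher in the knockout at Rpl21 (4.34 to 8.21), Bcl2 (6.65 to 8.21) and Polr2a (9.83 to 12.3). Cab39 (7.66 to 8.21) and Gm1976 (4.05 to 4.11) were also slightly higher. Most others were lower, such as Zfp185 (6.21 to 0), Gm38396 (10.3 to 0) and Lars2 (11.0 to 0). The 158 kept genes took 19.1%, 19.7% and 19.6% against 21.9%, 22.2% and 19.5%, with overlap.

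**Figure D4:**
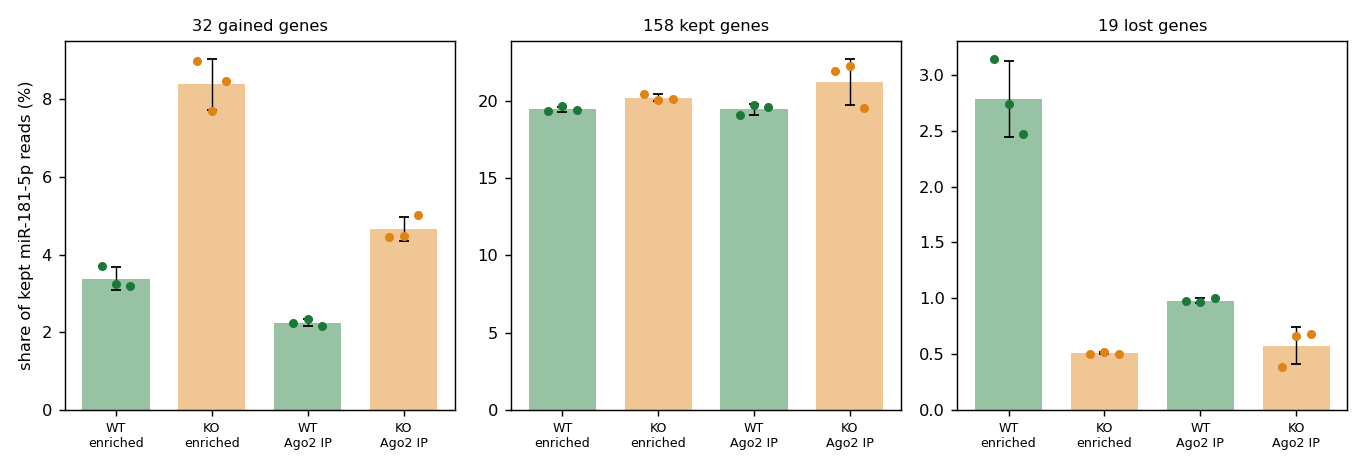
Share of kept miR-181-5p reads (%) in the gained, kept and lost genes, in the enriched libraries that formed the classes and in the Ago2 IP libraries that did not; dots are libraries, bars means and black lines SDs (n = 3). In the Ago2 IP the gained genes hold 2.17% to 2.34% in WT and 4.46% to 5.01% in KO, without overlap. The lost genes as a sum are lower in KO, also without overlap. None of them has more than 3 KO reads there, and some are higher in KO.

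Per gene, 1 of the 67 (1.49%) was called in the Ago2 IP (8 at an unadjusted p under 0.05). This was Ddit4, an inhibitor of mTOR signalling, with 27, 33 and 28 wild-type and 4, 7 and 1 knockout reads (log2 fold change 1.88, SE 0.46, edgeR's adjusted p = 0.032), which kept its part after enrichment (0.29). Of 7 gained genes tested in both, 6 were above 0 in the Ago2 IP, with Gm4258 at 1.47 (SE 0.42) and Atrx at 1.55 (SE 0.47), neither called (edgeR's adjusted p = 0.0565 each). Smg6 went the other way, at -0.43 (SE 0.85, edgeR's adjusted p = 0.854), on 54, 41 and 20 wild-type and 2, 1 and 0 knockout reads. Of 49 kept genes, 30 were above and 19 below 0. None of the lost genes had enough reads to be tested there. Zfp185 had 43 wild-type and 0 knockout reads (6.21 and 0 per 10000). Bcl2 had 46 and 2 (6.65 and 8.21 per 10000), so its part was not lower in the Ago2 IP knockout. Across the 67 genes, which are not independent replicates, the log2 fold changes of both kinds of library had a Spearman's rho of 0.53 and a Pearson's r of 0.39.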

How the data were processed

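Per the labels, miR-eCLIP libraries were made by a company from 20 µg of total RNA of mouse thymocytes per sample and sequenced as paired reads of 150 nt. The deposited files give chimeric reads, 1 line per read with a position, a miRNA name and a count of 1; Bowtie2 2.4.5, STAR 2.7.10, UMI-tools 1.1.1, SAMtools 1.11, bedtools 2.30.0 and the builds mm10 and GRCm38.p6 are named in the submitters' processing notes, without order or settings. Reads naming miR-181a, b, c or d-5p outside Mir181 hairpin spans were assigned to RefSeq GRCm38.p6 gene spans, strand ignored, and reads in no span or several were left out of gene counts. Each wild-type library held 169216 to 249540 such reads and each knockout library 4809 to 13501.

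Counts were tested with edgeR 4.0.16 (glmQLFit, filterByExpr with a minimum count of 10, kept reads as library size, no TMM factors) run in R 4.3.3 with a call at adjusted p values up to 0.05, after the script had been tested on simulated data. Exact tests used scipy 1.17.1 (Python 3.11.15), and DESeq2 1.42.0 gave an alternative fit. The exact intervals of pooled ratios, the Wilson intervals and the floors cover counting error only. The fold-change intervals that define kept genes come from the edgeR fit and are not limited to counting error. Every called gene is named except 1, which is not reported here, together with the 10 kept genes of narrowest interval and the tested members of the small lists where their values are described. The members, lists and tests were chosen with earlier results of these data known. Same-numbered samples did not deviate together (correlations of -0.0018, -0.0026 and -0.024 over 2005 genes). With a median of 5 knockout reads per tested gene, this check could not tell whether numbers pair samples. Exon classes and target-site sequences were not analysed here.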

Additional observations from a re-analysis of the deposited data

How the results depend on the processing

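Against 51 calls (32 higher, 19 lower), 158 kept genes and 3 calls on the lists, a fit without a filter on low counts gave 31 calls (7 lower, 1 on the lists), miR-181a and b names only 29 (17 higher, 12 lower, 86 kept, 1 on the lists), wild type thinned to the knockout depth 22 (17 higher, 5 lower, 36 kept; 97 genes tested), and c and d names only 5 (3 higher, 2 lower, 2 kept; 12 genes tested). TMM factors gave 21 higher calls, identical reads counted once 58 higher and 6 on the lists, library sizes of all chimeric reads 20 higher, 53 lower and 5 on the lists, a bias-adjusted quasi-dispersion 12 lower, and DESeq2 1 on the lists. Leaving out 1 library gave 26 to 60 calls (20 to 37 higher, 6 to 23 lower), 58 to 150 kept genes and 1 to 4 calls on the lists. The replicate block gave 46 calls (30 higher), and not every sample correlated best with its own number. In the Ago2 IP the single call became 0 with TMM factors, no filter, the replicate block or DESeq2, 5 with identical reads counted once, and 0 to 1 without 1 library. The difference in the share of reads in 1 gene span, -0.0521 percentage points, turned to 0.0338 with knockout libraries 2 and 3 as 1 sample and ran from -0.224 to 0.153 without 1 library. Counting identical reads once turned the log2 fold changes of Rpl21 (1.114), Hspa8 (0.51), Lars2 (0.55) and Rbmx (1.18), and a and b names only that of Arl15 (-0.30). For these changes the cause was not tested, except that thinning and the c and d names tested fewer genes. The bias-adjusted, c and d, strand and small RNA alternatives were chosen after seeing the data. Knockout depth limits the result: 208 tested genes would have under 3 knockout reads at an unchanged part.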

Other observations

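Some gene groups outside the lists above were also counted. Over all 2005 tested genes, 1.6% gained, 0.948% lost and 7.88% kept their part, with a median log2 fold change of -0.04. Of 101 ribosomal protein genes, 90 had a kept read and 11 were tested, with a median log2 fold change of -0.82. Of these 11, 1 gained and 2 were lost, Rpl21 and Rps15a. With identical reads counted once, neither Rpl21 nor Rps15a was called. Of 400 genes with Zfp symbols, 62 were tested; Zfp185 and Zfp944 were lost, 3 kept their part and the median was -0.35. Of 37 mitochondrial transcripts, 8 were tested with no call and a median of 0.93, and the group took 0.307%, 0.396% and 0.314% of reads in wild type and 0.682%, 0.541% and 0.478% in the knockout, without overlap. A run in CYTB, which encodes a subunit of respiratory complex III, was called higher (M, 14883 to 14978; 92 wild-type and 14 knockout reads; log2 fold change 1.89, SE 0.48, edgeR's adjusted p = 0.0266).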
